A study of Mus musculus with 6 samples.

Results

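The genes described here are 10 core targets of the transcription factor p53, *Cdkn1a*, *Mdm2*, *Trp53inp1*, *Plk2*, *Ei24*, *Ccng1*, *Sesn1*, *Zmat3*, *Perp* and *Btg2*. They were chosen by name, as the loci of the count table that carry one of these symbols, and each symbol matched 1 of the 51499 loci. Of the 10 genes, 9 had enough reads to be among the 14499 loci tested, and *Perp* did not. Messenger RNA was measured by RNA-Seq in mouse embryonic fibroblasts (MEFs) of WT genotype, 72 h after transfection with a scrambled siRNA (Scr) or an siRNA against *Yme1l*, with 3 independent cultures in each group. *Yme1l*, listed as *Yme1l1* in the files, encodes a protease of the mitochondrial inner membrane. Both groups share the same cell line, which the study's methods describe as a clone from *Yme1l* loxP/loxP animals, immortalized with SV40 large T antigen and exposed to Cre recombinase without losing the gene. The labels instead call the cells 3T3 immortalized, and that difference is not resolved here. By either account the line is immortalized. Large T antigen is known to bind p53, so a line made with it is a limited model of the p53 response in untransformed cells. Whether that limit applies here depends on the unresolved origin. Only RNA was measured, not p53 protein or its activity. In bulk RNA, fewer cells of a type and less RNA per cell cannot be told apart.

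p53 is held at low levels in unstressed cells by the ubiquitin ligase MDM2, and is stabilised when DNA damage, ribosomal stress or oncogene signalling weakens that hold. It then binds a response element built from a pair of 10-base units in or near its target genes, which arrest the cell cycle, restrain growth signalling, promote autophagy or cell death, and, through MDM2, switch p53 off again. In fibroblasts this response is known for cell cycle arrest and senescence, with *Cdkn1a* as its best known effector.

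The promoter sequences show where letters that match that element, or 1 of its 10-base units, lie close to the start sites. They are shown because the members moved in both directions, and the letters let a reader set the direction of each gene beside the match it carries. RefSeq promoters (GRCm38.p6, from 250 bases before to 50 bases after a start site) were at hand for 7 of the 10 genes and gave 9 promoters, none for *Trp53inp1*, *Zmat3* or *Perp*. On both strands, exact matches to the p53 response element, paired units with a spacer of up to 13 bases, were sought. They were found in 1 of these 9 promoters, the first of the 2 of *Cdkn1a* (its second holds no unit), and in 24 of all 32851 promoters (0.0731%). A single unit was found in 5 of the 9 and in 2745 of all promoters (8.36%). Units with a differing base were not counted. In *Cdkn1a* the second unit is followed directly by tgacatgttc, which departs from an exact unit at its first base and is not marked. The pair with the 12-base spacer is therefore the exact match only, and which bases p53 uses was not tested. The capitals below mark the 10-base units, first the paired units of *Cdkn1a* with the 12-base spacer, then each single unit with its neighbouring bases, on the strand of the gene.
*Cdkn1a*, chr17:29090906-29090937, plus strand, from -73 to -42 of its first promoter: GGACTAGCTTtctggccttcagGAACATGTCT
*Mdm2*, chr10:117710925-117710954, minus strand, unit from -186 to -177: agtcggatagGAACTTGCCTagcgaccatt
*Ccng1*, chr11:40755452-40755481, minus strand, unit from -185 to -176: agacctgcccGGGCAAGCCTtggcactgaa
*Sesn1*, chr10:41887256-41887285, plus strand, unit from -173 to -164 of its second promoter: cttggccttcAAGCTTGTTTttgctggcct
*Ei24*, chr9:36797325-36797354, minus strand, unit from -10 to -1: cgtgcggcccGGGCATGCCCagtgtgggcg
Positions are counted from the RefSeq start site. In the promoters of *Plk2* and *Btg2* no exact match was found. Sequence outside these promoters was not read, so elements elsewhere in the genes are not covered. No binding was measured in these data, and whether a single unit is a working site was not tested. Of the 5 genes with a unit, *Mdm2* was higher after *Yme1l* knockdown and the other 4 were lower, as described below. Among all 9 tested members 6 were lower, beside 29.6% of all loci tested. Of the genes whose promoters held no match, *Plk2* was higher and *Btg2* lower. Whether direction goes with a match was not tested.

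The members did not move as a block. By edgeR's quasi-likelihood test, with p-values adjusted over all loci tested by the Benjamini-Hochberg method, 8 of the 9 tested genes passed the threshold of 0.05, beside 58.0% of all loci tested. *Mdm2* and *Plk2* rose, which is 2 of 9 beside 28.4% of all loci, and *Trp53inp1*, *Ei24*, *Sesn1*, *Ccng1*, *Cdkn1a* and *Btg2* fell, which is 6 of 9 beside 29.6%. *Zmat3* did not pass. Among them *Ei24*, *Trp53inp1* and *Plk2* changed by at least 2-fold, which is 3 of 9 beside 15.5% of all loci, while the other called genes changed by between 1.34-fold and 1.80-fold. The median log2 fold change of the 9 genes was -0.63, beside 0.01 for all loci, and the median size of the change was 0.84, beside 0.42. In all 9 genes the 3 cultures of one group lay wholly above or below those of the other, which held for 65.4% of all loci tested. With 3 cultures against 3, a two-sided exact permutation test of a single gene cannot go below p = 0.1, and each of the 9 genes reached that value.

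**Figure D1:**
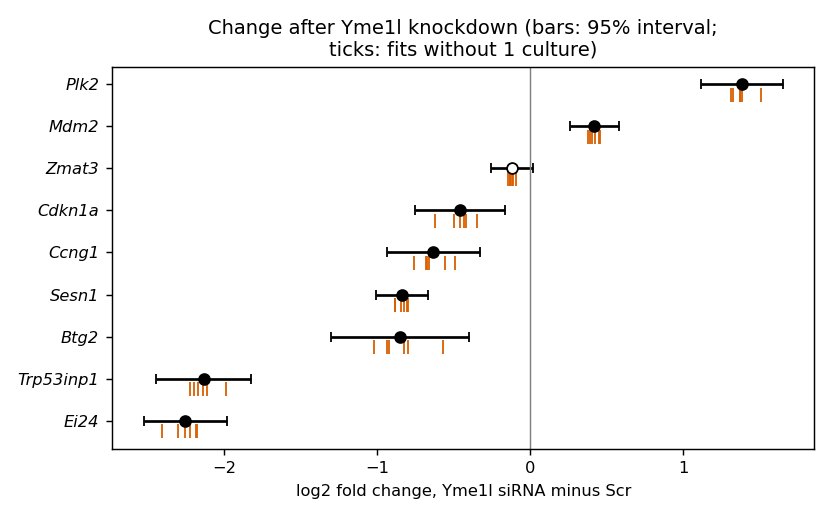
Log2 fold change (Yme1l siRNA minus Scr) of the 9 tested p53 target genes, with bars for the 95% confidence interval from edgeR, filled points for loci that passed the test and ticks for the fits that left out 1 culture. The 6 genes that fell lie left of 0, from -2.25 for *Ei24* to -0.46 for *Cdkn1a*, *Mdm2* (0.42) and *Plk2* (1.38) lie right of it, and the interval of *Zmat3* (open point) spans it.

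The plot of log2 fold changes orders the genes by these estimates. Levels are given from here on as CPM, the counts of a locus divided by the library's total in units of 1e+06 counts and scaled by TMM factors, which make libraries comparable for 1 gene but not genes of different length with each other.

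Feedback on p53 itself is represented by *Mdm2* and *Ccng1*. *Mdm2* (XLOC_005684, chr10:117688875-117710758, minus strand) encodes the ubiquitin ligase that marks p53 for degradation and is itself a p53 target, which closes a negative feedback loop. Its level was 50.2, 48.4 and 53.7 CPM in the Scr cultures and 67.8, 71.5 and 64.7 CPM after *Yme1l* knockdown. Every knockdown culture lay above every Scr culture, and the spread within each group was small. The means were 50.8 ± 2.70 and 68.0 ± 3.40 CPM (SD, n = 3 each), a 1.34-fold rise with a log2 fold change of 0.42 (SE 0.07, edgeR adjusted p = 0.00110). *Ccng1* (XLOC_007566, chr11:40748552-40755311, minus strand) encodes cyclin G1, which recruits the phosphatase PP2A to MDM2. It moved the other way, with 49.7, 49.1 and 57.8 CPM in Scr and 34.99, 27.0 and 39.1 CPM after knockdown. The lowest Scr culture was still above the highest knockdown culture. From 52.2 ± 4.87 to 33.7 ± 6.14 CPM (SD, n = 3 each), *Ccng1* was 1.55-fold lower, a log2 fold change of -0.63 (SE 0.13, edgeR adjusted p = 0.00355).

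Genes that slow or organise the cell cycle, *Cdkn1a*, *Btg2* and *Plk2*, split in direction as well. *Cdkn1a* (XLOC_019019, chr17:29090979-29100722, plus strand) encodes p21, the inhibitor of cyclin-dependent kinases through which p53 arrests the cycle. Its Scr cultures held 63.5, 67.6 and 69.7 CPM and its knockdown cultures 46.1, 59.6 and 40.7 CPM. The groups did not overlap, although the second knockdown culture came close to the Scr range. The means were 66.9 ± 3.15 and 48.8 ± 9.74 CPM (SD, n = 3 each), a 1.37-fold fall with a log2 fold change of -0.46 (SE 0.13, edgeR adjusted p = 0.0149). This is the least secure of the 8 calls, since without the first knockdown culture the log2 fold change was -0.42 and the edgeR adjusted p was 0.0567, and without the second the log2 fold change was -0.62. An annotated transcript on the opposite strand, AC167363.2, shares exon bases with *Cdkn1a*.

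*Btg2* (XLOC_002717, chr1:134075170-134079120, minus strand), an antiproliferative gene whose protein binds the deadenylase complex that shortens mRNA tails, held 30.8, 26.0 and 46.8 CPM in Scr and 17.8, 21.3 and 18.5 CPM after knockdown. The third Scr culture stood well above the other two, and the log2 levels of the Scr cultures had an SD of 0.435, beside a median of 0.113 over all loci tested. From 34.6 ± 10.9 to 19.2 ± 1.85 CPM (SD, n = 3 each), *Btg2* was 1.80-fold lower, with a log2 fold change of -0.85 (SE 0.20, edgeR adjusted p = 0.00595). Without the third Scr culture the log2 fold change was -0.57 (edgeR adjusted p = 0.00451), so the direction was the same and the size smaller.

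*Plk2* (XLOC_012266, chr13:110395046-110400844, plus strand) encodes a polo-like kinase that acts in centriole duplication. It held 46.7, 46.1 and 46.0 CPM in the 3 Scr cultures and 133, 131 and 97.9 CPM in the 3 knockdown cultures. The Scr cultures were almost identical, and all knockdown cultures were more than 2 times as high. With means of 46.2 ± 0.363 and 121 ± 19.8 CPM (SD, n = 3 each), *Plk2* rose 2.61-fold, a log2 fold change of 1.38 (SE 0.12, edgeR adjusted p = 3.4e-05). Its change was larger in size than that of 91.3% of all loci tested.

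**Figure D2:**
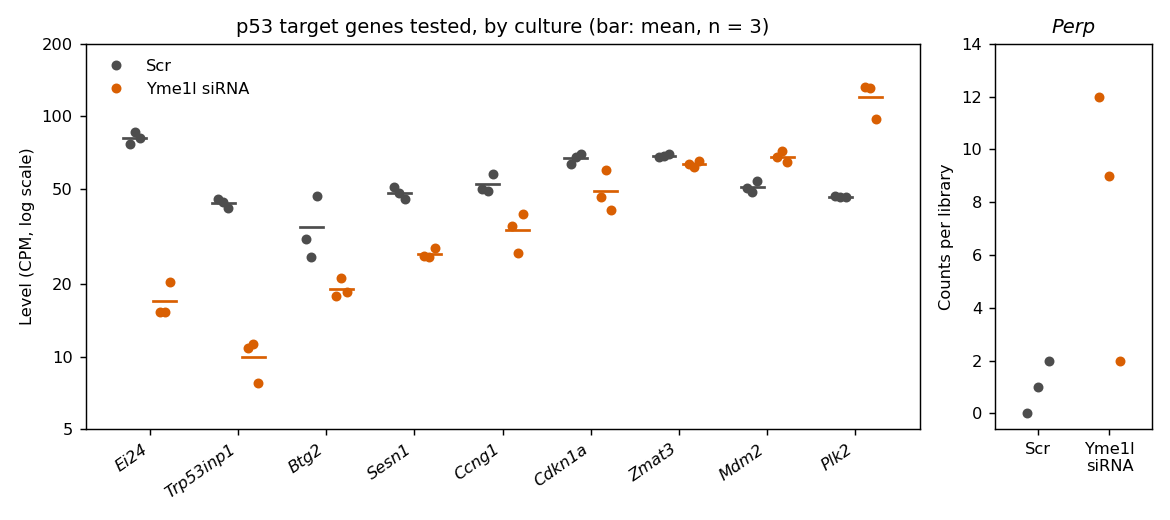
Level of each of the 9 tested p53 target genes in every culture, in CPM on a log axis, with a point for each of the 3 Scr and 3 Yme1l siRNA cultures and a bar at the mean, and counts per library for *Perp* on the right. No tested gene has overlapping groups, and the third Scr culture of *Btg2* (46.8 CPM) and the third knockdown culture of *Plk2* (97.9 CPM) stand apart from their group.

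The plot of levels by culture shows that the spread within a group differed from gene to gene, with *Plk2* tight in Scr and wider after knockdown, and *Btg2* the reverse.

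Among members that act in growth signalling, autophagy and cell death, the tested *Ei24*, *Trp53inp1* and *Sesn1* fell. The first pair had the largest falls of the 9 tested genes. *Perp*, which also has a part in cell death, was too low to test. Its few counts went the other way, 3 in Scr against 23 after knockdown, and are described below. *Ei24* (XLOC_046231, chr9:36767887-36797393, minus strand) encodes a membrane protein of the endoplasmic reticulum that is needed for autophagy. Its level was 76.6, 85.7 and 81.6 CPM in Scr and 15.3, 15.4 and 20.5 CPM after knockdown. Each knockdown culture held far less than any Scr culture. The means of 81.3 ± 4.55 and 17.1 ± 2.94 CPM (SD, n = 3 each) gave a 4.76-fold fall, a log2 fold change of -2.25 (SE 0.12, edgeR adjusted p = 7.2e-06), larger in size than 97.4% of all loci tested. An antisense gene, Gm26787, shares exon bases with *Ei24*. Its own locus held 0 counts, and whether the counting used the strand of the reads is not stated.

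*Trp53inp1* (XLOC_028788, chr4:11156431-11174379, plus strand) encodes a stress protein that takes part in autophagy and in p53-dependent cell death. It held 45.5, 44.0 and 41.6 CPM in Scr and 10.8, 11.3 and 7.76 CPM after knockdown. The groups were far apart, with the third knockdown culture the lowest. From 43.7 ± 1.93 to 9.96 ± 1.92 CPM (SD, n = 3 each) the fall was 4.38-fold, a log2 fold change of -2.13 (SE 0.14, edgeR adjusted p = 1.2e-05). *Trp53inp1* and *Plk2* moved in opposite directions. The ratio of *Plk2* to *Trp53inp1* CPM was 1.06 ± 0.0407 in Scr and 12.2 ± 0.496 after knockdown (SD, n = 3 each). A ratio near 1 in CPM does not mean equal levels, since the genes differ in length. Per kb of exon the Scr means were 10.3 for *Plk2* and 6.75 for *Trp53inp1*. The rise of the ratio follows from the calls of both genes and adds no support beyond them.

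*Sesn1* (XLOC_003643, chr10:41809935-41908424, plus strand) encodes a sestrin, a protein that restrains the growth kinase complex mTORC1. Its Scr cultures held 50.7, 47.9 and 45.2 CPM and its knockdown cultures 26.3, 25.9 and 28.4 CPM. Both groups were tight and well separated. The means were 47.9 ± 2.75 and 26.8 ± 1.32 CPM (SD, n = 3 each), a 1.79-fold fall with a log2 fold change of -0.84 (SE 0.07, edgeR adjusted p = 4.3e-05).

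The remaining members are *Zmat3* and *Perp*. *Zmat3* (XLOC_027472, chr3:32334792-32366014, minus strand) encodes a zinc-finger protein that binds RNA and affects splicing. It held 67.8, 68.2 and 69.8 CPM in Scr and 63.1, 61.3 and 65.2 CPM after knockdown. The groups did not overlap, but the distance between them was small, and the locus did not pass the test. The means were 68.6 ± 1.07 and 63.2 ± 1.97 CPM (SD, n = 3 each), and the log2 fold change was -0.12 (95% confidence interval from -0.26 to 0.02, edgeR adjusted p = 0.126). The interval leaves out any change near that of *Ccng1* or *Sesn1*, though not a small fall.

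*Perp* (XLOC_003447, chr10:18845020-18857073, plus strand) encodes a membrane protein of desmosomes, the junctions of epithelia, and mediates cell death in some cells. It was close to absent, with 0, 1 and 2 counts in the libraries of Scr cultures and 12, 9 and 2 counts in those of knockdown cultures, so it was removed by the filter on low counts. The groups touched at 2 counts. The ratio of summed counts, 23 against 3 and scaled for library size, was 7.17 (exact 95% interval from 2.17 to 37.3, which covers counting error only and not the spread between cultures), and it lay between 4.62 (without the first Scr library) and 14.0 (without the third) when 1 library was left out. Without the filter *Perp* passed the test (edgeR adjusted p = 0.0331). Each Scr library was at or under 3 counts, and the highest knockdown library had 12, so the gene was barely measured at this depth.

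To compare levels between genes, CPM values were divided by the length of the annotated exons (CPM per kb). On this scale *Cdkn1a* was highest in Scr at 18.8 ± 0.887 CPM per kb (SD, n = 3), followed by *Ei24* at 16.7, *Ccng1* at 14.9, *Btg2* at 12.6, *Sesn1* at 12.04, *Plk2* at 10.3, *Mdm2* at 9.99, *Trp53inp1* at 6.75 and *Zmat3* at 6.00, with *Perp* at 0.0128 CPM per kb. The neighbours *Ei24* and *Ccng1*, *Ccng1* and *Btg2*, *Btg2* and *Sesn1*, and *Plk2* and *Mdm2* overlapped between cultures and are not told apart in this order. After knockdown *Plk2* was first at 26.9 ± 4.40 CPM per kb, *Cdkn1a* and *Mdm2* followed at 13.7 and 13.4 with overlapping cultures, and *Ei24* and *Trp53inp1* were lowest among the tested genes at 3.51 and 1.54. The authors' pooled FPKM values, which use another length model, also put *Plk2* first after knockdown at 45.4, but in Scr they put *Ei24* at 39.2 above *Cdkn1a* at 37.7, so these genes cannot be ranked between the scales. Among all loci tested that have a length, the level of *Plk2* stood at percentile 85.5 after knockdown and that of *Trp53inp1* at percentile 28.0.

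**Figure D3:**
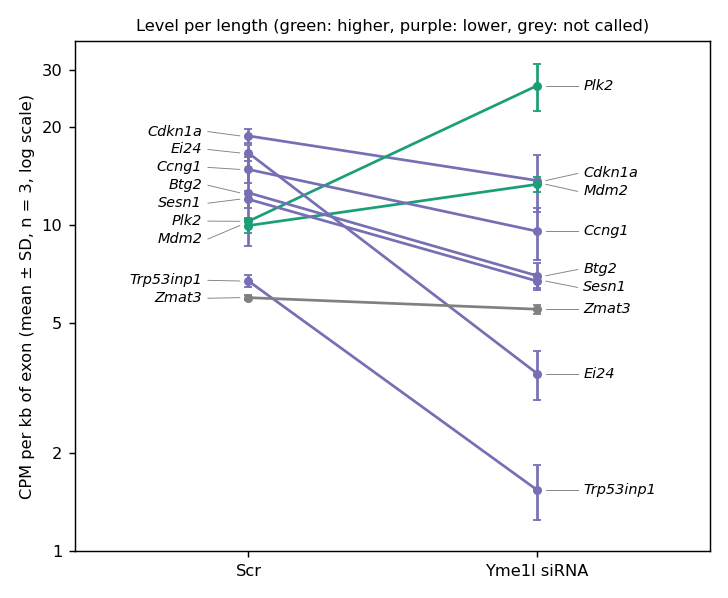
Level per length of the 9 tested p53 target genes in Scr and Yme1l siRNA cultures, in CPM per kb of exon on a log axis (mean ± SD, n = 3), with a line joining the means of each gene. *Plk2* crosses from 10.3 to 26.9 to become the highest, while *Ei24* drops from 16.7 to 3.51 and *Trp53inp1* from 6.75 to 1.54.

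The p53 inhibitor and the p53 effector can be set against each other within each library, where scaling between libraries cancels. The ratio of *Mdm2* to *Cdkn1a* CPM was 0.791, 0.716 and 0.770 in the Scr cultures and 1.47, 1.20 and 1.59 in the knockdown cultures. Every knockdown culture had a higher ratio than every Scr culture, as had to follow once *Mdm2* rose and *Cdkn1a* fell without overlap. Which gene is the higher depends on length: per kb of exon the second knockdown culture held 16.8 CPM per kb of *Cdkn1a* and 14.1 of *Mdm2*. The mean rose from 0.759 ± 0.0384 to 1.42 ± 0.200 (SD, n = 3 each, two-sided exact permutation test on log2 ratios, p = 0.1, the smallest possible). That p was fixed by the separate groups of both genes and adds no support beyond them.

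Upstream of these targets, 22 of 23 listed genes for p53 and its regulators were tested, and *Trp73* was at 0 counts in all 6 libraries. Of the 22, 7 rose, 8 fell and 7 did not pass, shares not far from the 28.4% and 29.6% of all loci, with a median log2 fold change of 0.14. Without the first Scr culture 5 fell, and without the first knockdown culture 4 rose and 5 fell. *Trp53*, which encodes p53, held 197, 190 and 172 CPM in Scr and 216, 218 and 215 CPM after knockdown, a rise of 0.22 on the log2 scale (SE 0.07, edgeR adjusted p = 0.0310). That call did not hold without the second Scr culture, the third Scr culture or the first knockdown culture (edgeR adjusted p = 0.0740, 0.0917 and 0.0863), though the direction did. *Cdkn2a*, whose locus encodes ARF, the inhibitor of MDM2, as well as the kinase inhibitor p16, fell from 272 ± 17.1 to 172 ± 9.28 CPM (SD, n = 3 each, log2 fold change -0.66, edgeR adjusted p = 0.000159). *Mdm4*, the partner of MDM2 that blocks p53 activity, fell by 0.27 on the log2 scale (edgeR adjusted p = 0.0428), a call that was lost without the first or the third Scr culture or without the first or the second knockdown culture (edgeR adjusted p between 0.0920 and 0.127) and with library totals as the only scaling (0.121). The *Mdm2* to *Mdm4* ratio, which needs no scaling, was 0.632 ± 0.0311 in Scr and 1.02 ± 0.1496 after knockdown (SD, n = 3 each). The rise of *Mdm2* enters this ratio, so it adds no support to the call of *Mdm4*. The checkpoint kinase gene *Chek1* rose by 0.83, *Rpl11*, a ribosomal protein gene whose product binds MDM2, rose by 0.48, the acetyltransferase gene *Crebbp* rose by 0.48, and *Dyrk2*, a kinase gene for p53, fell by 0.51 on the log2 scale (edgeR adjusted p = 0.000117, 0.000887, 0.00100 and 0.000781).

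Of the other p53 targets, all 31 listed genes were tested, of which 12 rose, 9 fell and 10 did not pass, beside 28.4% of all loci that rose and 29.6% that fell. Their median log2 fold change was -0.01, and the share that fell was near that of all loci. Among cell death genes, *Bax*, which permeabilises the mitochondrial outer membrane, rose from 45.3 ± 1.40 to 53.3 ± 0.794 CPM (SD, n = 3 each, log2 fold change 0.24, edgeR adjusted p = 0.00897), at a locus that joins 3 gene names, and did not pass without the first Scr culture (edgeR adjusted p = 0.0546). *Bbc3* (Puma) fell by 0.50 on the log2 scale (edgeR adjusted p = 0.00941), while *Pmaip1* (Noxa) and the death receptor gene *Fas* did not pass, with log2 fold changes of 0.18 and 0.42 (edgeR adjusted p = 0.579 and 0.342). The *Fas* estimate rested on single cultures: it was 0.74 without the third knockdown culture (edgeR adjusted p = 0.0226) and 0.03 without the second (edgeR adjusted p = 0.945). The genes of BCL-2 family proteins therefore did not share a direction. *Gdf15*, a secreted stress cytokine, rose by 1.65 on the log2 scale (SE 0.47, edgeR adjusted p = 0.0156) from a low level, with 0.485, 0.610 and 1.94 CPM in Scr and 3.07, 4.10 and 2.47 CPM after knockdown, and did not pass without the second Scr culture (edgeR adjusted p = 0.0603). Without the third Scr culture, the highest of its group, the log2 fold change was 2.55 (edgeR adjusted p = 0.000560). The 5 genes of this list with the smallest p were *Steap3*, a ferrireductase (log2 fold change -0.81), *Xpc*, a DNA repair gene (0.78), *Ckap2*, a spindle protein gene (0.84), *Cyfip2* (1.21) and *Eda2r*, a death receptor gene (-0.90), with edgeR adjusted p between 2.9e-05 and 0.000312.

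Next to each member, its closest relatives were set. Of 16 listed relatives 14 were tested, 3 rose, 7 fell and 4 did not pass, beside 28.4% and 29.6% of all loci that rose and fell, with a median log2 fold change of -0.20. *Trp53inp2*, an autophagy gene, fell with *Trp53inp1*, from 133 ± 6.89 to 34.3 ± 4.79 CPM (SD, n = 3 each, log2 fold change -1.95, edgeR adjusted p = 7.2e-06), and the ratio of the pair overlapped between groups (3.05 ± 0.292 in Scr and 3.48 ± 0.396 after knockdown, two-sided exact permutation test, p = 0.2). The sestrins did not share a direction: *Sesn3* fell from 287 ± 30.04 to 96.0 ± 9.65 CPM (log2 fold change -1.58, edgeR adjusted p = 1.4e-05), while *Sesn2* held 35.8, 34.3 and 52.0 CPM in Scr and 54.2, 52.98 and 51.8 CPM after knockdown and did not pass (log2 fold change 0.38, edgeR adjusted p = 0.0503). It lay just outside the threshold and passed, as higher, without the third Scr culture (log2 fold change 0.59, edgeR adjusted p = 0.000459) and with DESeq2 (adjusted p = 0.0176). The ratio of *Sesn2* to *Sesn1* CPM was 0.858 ± 0.254 in Scr and 1.98 ± 0.131 after knockdown, and that of *Sesn3* to *Sesn1* was 6.01 ± 0.932 and 3.57 ± 0.233 (SD, n = 3 each). *Ccng2* fell with *Ccng1*, by 0.98 on the log2 scale (edgeR adjusted p = 2.5e-05), and *Plk4*, the kinase gene that starts centriole duplication, rose with *Plk2*, by 0.89 (edgeR adjusted p = 2.0e-05). *Zmat5* fell by 0.79 (edgeR adjusted p = 6.9e-05) where *Zmat3* did not pass. Picked after their values were seen, *Btg1* fell by 0.75 like *Btg2*, *Cdkn1b* (p27) fell by 0.49 like *Cdkn1a*, and *Plk3* rose by 0.66 like *Plk2* (edgeR adjusted p = 0.000153, 0.000415 and 0.00248). Their relatives *Btg3* and *Cdkn1c* did not pass, with log2 fold changes of 0.16 and -0.09 (edgeR adjusted p = 0.421 and 0.723).

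p21 acts on transcription through the DREAM complex, which represses cell cycle genes when cyclin-dependent kinases are inhibited. Of 18 listed DREAM targets, all tested, 14 rose, 0 fell by edgeR or by DESeq2 and 4 did not pass (*Ccnb2*, *Kif23*, *E2f1* and *Aurkb*), with a median log2 fold change of 0.63. All 18 estimates were above 0, the lowest at 0.05, so 0 were lower at an unadjusted p under 0.05. The share that rose stands beside 28.4% of all loci tested. *Mybl2*, a transcription factor gene of S phase, rose from 33.8 ± 5.51 to 140 ± 7.34 CPM (SD, n = 3 each, log2 fold change 2.05, edgeR adjusted p = 7.8e-06). *Birc5* (survivin), *Foxm1* (at a locus that joins 4 gene names) and *Cdk1* rose by 1.04, 1.05 and 0.58 on the log2 scale (edgeR adjusted p = 2.5e-05, 4.3e-05 and 0.000281). *Cdkn1a* and these genes thus moved in opposite directions, a description that was not tested as a relation. Neither p21 protein nor the DREAM complex was measured, and whether the complex acts in this immortalized line was not tested. *Mdm4*, *Plk1*, *Plk4* and *Sesn2* each stand in more than 1 list.

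**Figure D4:**
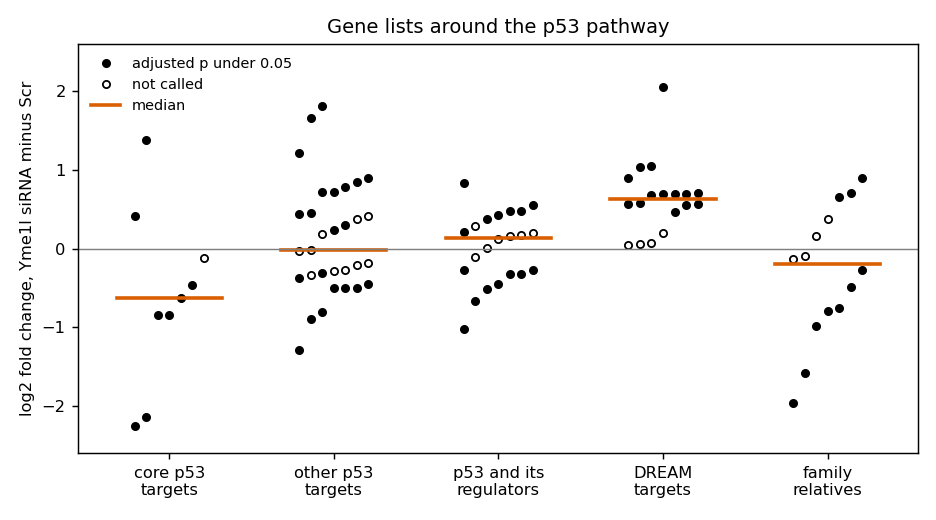
Log2 fold change (Yme1l siRNA minus Scr) of every tested gene in the member list, the other p53 targets, p53 and its regulators, the DREAM targets and the family relatives, with filled points for adjusted p under 0.05, open points for genes that did not pass and a bar at each median. The DREAM targets lie above 0 with a median of 0.63, and the other p53 targets spread to both sides of 0 with a median of -0.01.

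Against all loci, the size of the members' changes ran from ordinary to large. The change of *Trp53inp1* was larger in size than that of 97.0% of all loci tested, those of *Btg2* and *Sesn1* than that of 78.5% and 77.9%, that of *Ccng1* than that of 67.3%, and those of *Cdkn1a* and *Mdm2* than that of 53.7% and 50.5%, so the best known effector and inhibitor changed about as much as a typical locus. *Zmat3* stood at 15.4%.

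**Figure D5:**
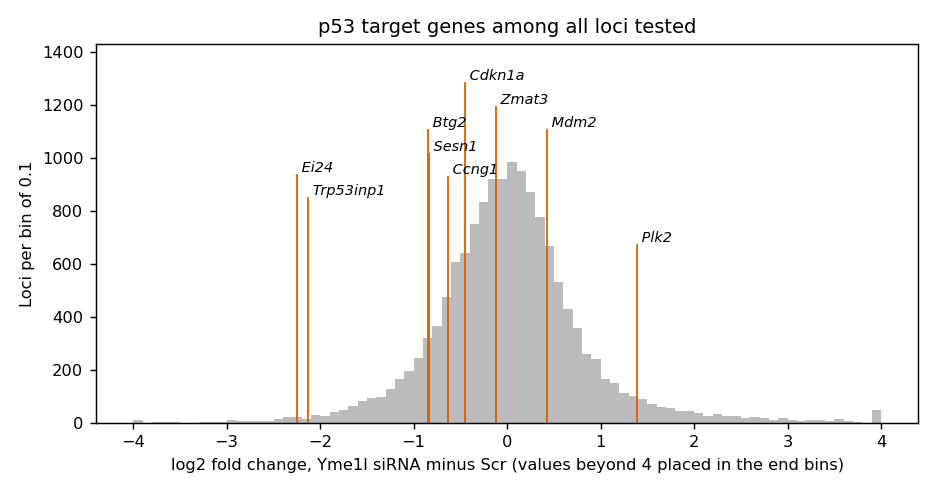
Distribution of log2 fold changes (Yme1l siRNA minus Scr) over the 14499 loci tested, as a histogram, with a vertical line for each of the 9 tested p53 target genes. *Ei24* and *Trp53inp1* lie in the left tail, *Plk2* in the right, and *Zmat3*, *Mdm2* and *Cdkn1a* near the centre.

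Facts of the libraries that bear on these values are as follows. The targeted gene, *Yme1l1*, held between 170 and 171 CPM in the Scr cultures and 31.6, 23.4 and 45.0 CPM after knockdown (log2 fold change -2.36, SE 0.20, edgeR adjusted p = 3.9e-05), so the third knockdown culture had the least knockdown. The libraries held between 37260605 and 45205207 counts. Of 12 fibroblast markers 10 were tested, of which 9 fell and *Vim* did not pass, and their summed level ran from 34144 to 41358 CPM in Scr and from 18378 to 22787 CPM after knockdown. The fibroblast markers *Thy1* and *Lum* were at or near 0 in both groups. Of 5 macrophage markers 3 were tested and *Csf1r* rose, while *Cd68* and *Lyz2* did not pass (log2 fold changes of -0.13 and -0.34) and *Ptprc* and *Adgre1* were at or near 0. *Csf1r* went from 123 to 205 CPM in the group means, and the summed level of the 5 ran from 163 to 180 CPM in Scr and from 242 to 255 CPM after knockdown. Of 5 epithelial markers only *Krt8* was tested, and it rose from 1 count in each Scr library to between 23 and 31 counts, with summed levels of the list from 0.115 to 0.194 CPM and from 0.831 to 1.33 CPM, while *Epcam*, *Cdh1*, *Krt14* and *Krt18* were too low to test. Of 4 endothelial markers 3 were tested, *Kdr* and *Tek* rose and *Pecam1* did not pass, with summed levels from 3.79 to 4.08 CPM and from 5.68 to 7.81 CPM. The part of these marker changes in the values of the p53 targets was not tested.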

How the data were processed

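RNA-Seq libraries were made from poly-A RNA of 6 MEF cultures with a stranded kit and sequenced in pairs. Per the labels and methods, the authors mapped reads to mm10 (GRCm38) with HISAT2 2.0.4, assembled transcripts with StringTie 1.3.3 and compared groups with Cufflinks and Cuffdiff 2.2.1. The deposited count table holds raw counts per locus, and the counting program and its use of strand are not given in the sources used here. A second deposited table holds the authors' FPKM per group, with replicates combined, which is printed as the authors' value. Its fold changes and p-values are the authors' comparison and were not used. Other libraries of the study were not analysed here.

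Groups came from the sample titles, and 0 per-sample columns were left unmapped. With edgeR 4.0.16 (R 4.3.3), TMM factors were computed and Yme1l siRNA was compared with Scr by the quasi-likelihood test, without covariates, for loci kept by filterByExpr (a minimum of 10 counts and 15 in total), with Benjamini-Hochberg adjustment over all loci kept and a threshold of 0.05. The biological coefficient of variation, from the common dispersion, was 0.131. Single values were compared by two-sided exact permutation tests with scipy 1.17.1. Exon lengths came from GENCODE M21 and promoter sequences from RefSeq. Genes sharing exon bases with a named gene were listed from the annotation. Besides those given with the results, *Dyrk2*, *Zmat5*, *Plk3*, *Cdkn1c* and *Plk1* share some with opposite-strand genes of at most 12 counts in all libraries. *Btg3* shares some with the opposite-strand gene *Cxadr*, which held 2867 counts summed over the libraries. Near-identical copies were sought with BLAST 2.17.0. It found repeats of about 90% identity in *Zmat3* and the 262 bases that *Cdkn1a* shares with the opposite-strand transcript AC167363.2. No library repeated another of its group, since chi-square values over loci, divided by their degrees of freedom, ran from 9.70 to 69.9 within groups, above what sampling gives. Scripts were tested on simulated data. Confidence intervals are at 95%, and p-values measure the spread between the independent cultures.

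The genes named are the 10 members, *Yme1l1*, the 5 genes with the smallest p in each of the 4 lists (other p53 targets, p53 and its regulators, DREAM targets, family relatives), and *Trp53*, *Cdkn2a*, *Mdm4*, *Bax*, *Bbc3*, *Pmaip1*, *Fas*, *Gdf15* and *Sesn2*. *Btg1*, *Btg3*, *Cdkn1b*, *Cdkn1c* and *Plk3*, and the genes named among the cell type markers and among DREAM targets that did not pass, fall outside this rule and were added after their values were seen. *Cop1* was matched by its older symbol *Rfwd2*. The members and lists were chosen with earlier results of these data known. Alternatives were DESeq2 1.42.0, limma-voom (limma 3.58.1), other scale factors and filters, a stricter threshold, a block for the replicate number and fits without 1 library. Removing mtDNA loci and their copies, and leaving out libraries for the *Perp* ratio, were added after seeing the data.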

Additional observations from a re-analysis of the deposited data

How the results depend on the processing

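Over 16 alternative settings no result reversed, and of 807 values recomputed 34 changed, which means a changed call for a gene, a move of over 1.5 times for a count of genes and a move beyond the spread between replicates for the members' median. Of the members' own calls at the threshold of 0.05, that of *Cdkn1a* alone was lost, without the first knockdown culture (log2 fold change -0.42, edgeR adjusted p = 0.0567, range of log2 fold changes over left-out libraries from -0.62 to -0.34). The median log2 fold change of the members was -0.57 with library totals only and between -0.75 and -0.56 when 1 library was left out. For p53 and its regulators, 4 rose and 4 fell at the threshold of 0.01, and between 4 and 7 rose and between 5 and 7 fell with 1 library left out. Among the other named genes, 24 calls changed, all with the direction kept: *Sesn2* passed in 10 settings, including DESeq2, limma-voom and every other scaling, *Trp53* did not pass in 4, *Mdm4* in 7, and *Bax* and *Gdf15* in 1 each, while *Fas* passed in 1. Without a change of call, *Gdf15* moved to 2.55 without the third Scr culture and *Fas* to 0.03 without the second knockdown culture, and *Pmaip1*, also not called, ranged from 0.01 to 0.43 over left-out libraries. The number of members that rose was 2 or 3 and of those that fell 5 or 6, with *Perp* as the added one without the filter on low counts. Scaling moved the median over all loci by at most 0.065 on the log2 scale.

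Same-numbered cultures deviated together with correlations of 0.03, 0.11 and 0.18, so the numbers were not taken to pair the samples. With the replicate block, 2 members rose and 6 fell, with a median log2 fold change of -0.64. The depth of these libraries limits *Perp*, at or under 3 counts in each Scr library.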
